A study of Oryza sativa with 18 samples.

Results

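The 392 regions described here were near full methylation in rice coleoptiles (Oryza sativa cultivar Amaroo, wild type) grown for 4 d without oxygen, were partly methylated in coleoptiles grown for 4 d in air, and stood between these levels after a return to air. They were picked from the 2131 regions of a deposited table of 4 d air against 4 d nitrogen (the oxygen table) by their group levels, and a group level is the mean percent of methylated reads over the group's libraries with at least 10 reads. A region was kept if its level was at least 20% in air and at least 80% in nitrogen, if nitrogen exceeded air by at least 10 points, and if the re-aerated level lay 30% to 65% of the way from nitrogen down to air. Of the 577 regions that met the limits on air, nitrogen and their difference, 78 lay under the lower and 107 over the upper limit on that share, which left the 392. Since the levels chose the regions, the differences between the 3 groups are descriptions and support nothing.

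Each group had 3 MethylC-seq libraries, a bisulfite sequencing method that tells methylated from unmethylated cytosines. De-hulled seeds were grown in the dark at 30 °C in medium bubbled with air for 4 d (4 d air), with nitrogen gas for 4 d (4 d nitrogen), or with nitrogen for 3 d and then air for 1 d (called re-aeration). Whole coleoptiles were sampled, the sheath around the first leaf, and primary leaf tissue was taken off the air-grown ones, so oxygen and dissection cannot be told apart. The labels give no separate cultures for the libraries of a group, so their spread may be technical. No library of 3 d nitrogen alone was analysed here, so a re-aerated level under that of 4 d nitrogen can be a loss in air or a gain that did not take place, which cannot be told apart.

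In plants, methyl groups at CG sites are copied to the new DNA strand after replication by the maintenance methyltransferase MET1. Methylation in other contexts depends on chromomethylases and on small RNAs that guide the enzyme DRM2. Methylation is lost either when copying does not keep up with replication or when DNA glycosylases of the DEMETER and ROS1 family cut out the methylated base. Rice is known for a coleoptile that elongates without oxygen until it reaches air. A level from whole coleoptiles is an average, so a change in some cells or chromosome copies cannot be told apart from a smaller change in all of them. The column names carry CG and the deposited names CNN, so the context is not settled, and the sources used here do not give the genome build, so positions follow the authors' table and no gene was assigned.

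The 392 regions had 59348 to 77962 reads in a library, the library median was 119 to 167.5 reads a region, and every region had at least 10 reads in all 9 libraries. It is not given if a read count is of molecules or of cytosines in them. The highest level a library can show is 99.8%, because the deposited methylated values carry a factor just under 1.

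The mean level over the regions was 51.3%, 46.2% and 48.2% in the 3 air libraries, 85.7%, 84.96% and 85.6% in the 3 nitrogen libraries, and 68.4%, 67.7% and 67.7% in the 3 re-aerated libraries. The groups did not overlap, and the air libraries were spread more widely than those of the other groups. Air library 1 was the highest of its group in 178 of the 392 regions and library 2 in 90, whereas the highest nitrogen library was library 1, 2 and 3 in 144, 121 and 127 regions. The group means were 48.6% ± 2.54 in air, 85.4% ± 0.400 in nitrogen, 67.9% ± 0.410 after re-aeration (SD, n = 3 each). In unmethylated reads, this was 14.6% in nitrogen, 32.1% after re-aeration and 51.4% in air.

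**Figure D1:**
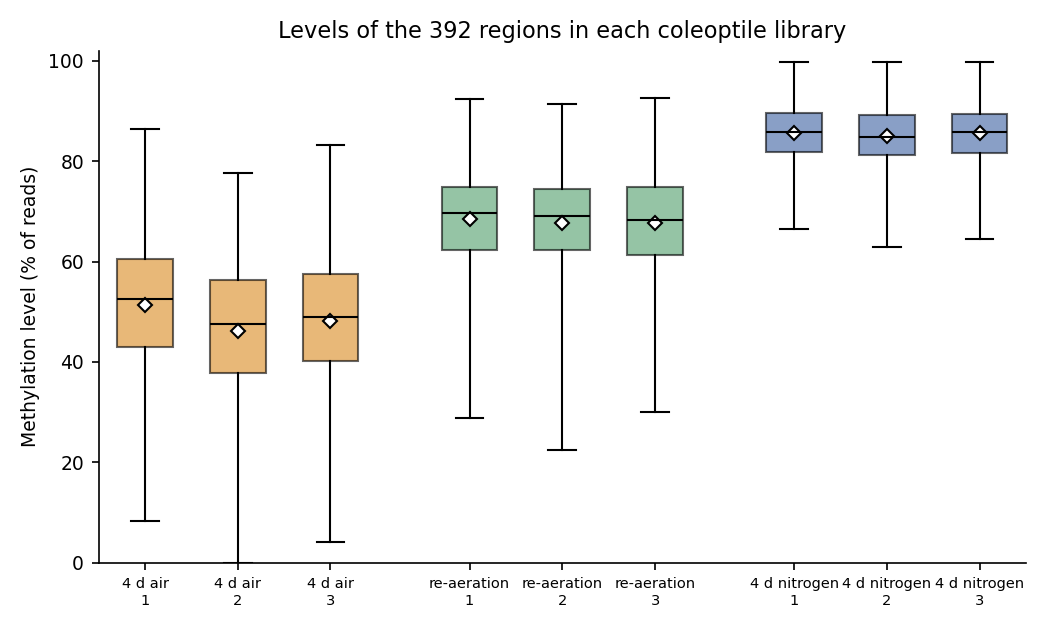
Methylation level (percent of reads, vertical axis) of the 392 regions in each of the 9 coleoptile libraries (horizontal axis, by group and replicate). Boxes span the quartiles with the median as a line, whiskers reach the lowest and highest region, and white diamonds are library means, which lie at 46.2% to 51.3% in air, 67.7% to 68.4% after re-aeration and 84.96% to 85.7% in nitrogen.

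In the other 1739 regions of the table the corresponding means were 34.8% ± 1.88 in air, 66.7% ± 0.669 in nitrogen, 51.2% ± 0.441 after re-aeration (SD, n = 3 each). The limits on air and nitrogen set this offset. Across the 392 regions, the level in nitrogen ran from 80.004% to 97.5% with an interquartile range of 82.4% to 88.0%, and the limit of 80% cut this range off from below. The level in air ran from 21.7% to 75.5%, with an interquartile range of 41.2% to 56.2%. The re-aerated level ran from 47.1% to 85.7%, with an interquartile range of 63.4% to 72.5%. In nitrogen, 187 regions stood at 85% or more and 55 at 90% or more, and in 12 at least 1 nitrogen library stood at 99% or more. No region reached 90% after re-aeration, and 1 reached 85%. In air 193 regions were under 50%, against 1 after re-aeration. The limits on nitrogen and on the share bound the re-aerated level from both sides, so its counts follow in part from the rule.

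The difference of nitrogen minus air had a median of 35.1 points, with an interquartile range of 28.8 to 43.6 and a range of 10.9 to 66.8. Nitrogen minus re-aeration had a median of 16.6 points, with a range of 6.84 to 41.4, and re-aeration minus air one of 18.9 points, with a range of 4.03 to 41.8. The median share of the way from nitrogen to air was 47.5%, and it was 46.7%, 47.3% and 48.2% when re-aerated library 1, 2 or 3 was read alone. A single re-aerated library fell within the limits of 30% and 65% in 241, 225 and 227 regions, stood above the nitrogen mean in 9, 1 and 4, and below the air mean in 4, 3 and 1. Without the limits on the share, the 577 regions had a median share of 48.5%, with an interquartile range of 36.8% to 61.3%. The 1554 regions that missed the limits on air, nitrogen or their difference had a median share of 49.1%, with an interquartile range of 35.1% to 63.2%. On the log odds scale the median share was 55.5% in the 392 and 49.1% in the other 1739 regions, against 47.5% and 49.6% in points, so the order depends on the scale. These shares are set side by side with no test, because regions are not replicates of a condition.

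**Figure D2:**
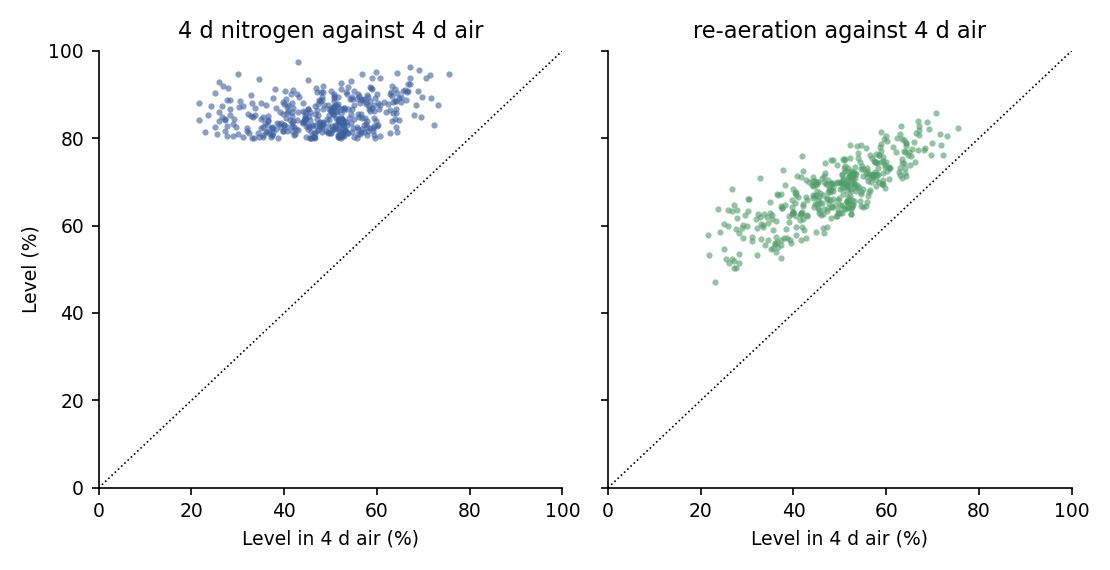
Group level (percent, vertical axis) of each of the 392 regions in 4 d nitrogen (left) and after re-aeration (right) against its level in 4 d air (percent, horizontal axis), with a dotted line at equal levels. Nitrogen levels lie between 80.004% and 97.5%. Their mean is 88.5% where air is at 60% and over and 84.1% to 85.4% in the sets below. Re-aerated levels run from 47.1% to 85.7% and are higher where air levels are higher. The limits on nitrogen and the share tie them to the air level.

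The regions with the largest difference between nitrogen and air were short. A 4 bp region on chromosome 6 (30939940 to 30939943) had levels of 47.5%, 15.8% and 14.8% in the air libraries, of 94.5%, 99.8% and 84.2% in the nitrogen libraries and of 49.9%, 33.3% and 71.3% in the re-aerated libraries, with 19 to 38 reads a library. Nitrogen did not overlap with the other groups, whereas air library 1 was above re-aerated library 2. Its means were 26.02% ± 18.6 in air, 92.9% ± 7.93 in nitrogen, 51.5% ± 19.1 after re-aeration (SD, n = 3 each).

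Libraries lay closer together in a region of 3 bp on chromosome 8, from 5565674 to 5565676. It stood at 30.7%, 26.4% and 33.3% in air, 95.2%, 96.5% and 92.1% in nitrogen and 67.7%, 69.1% and 61.8% after re-aeration, with 21 to 39 reads. All 3 groups were apart, and the re-aerated mean of 66.2% ± 3.88 (SD, n = 3) lay 44.1% of the way from nitrogen to air.

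A further large difference was on chromosome 11, from 15341849 to 15341859, which stood at 32.2%, 11.6% and 36.5% in air, 99.8%, 89.4% and 86.8% in nitrogen and 49.9%, 73.8% and 66.5% after re-aeration, with 28 to 52 reads. The groups were apart here too, with the widest spread in air. Of the others of the largest 6, that on chromosome 6 from 20143401 to 20143405 differed by 63.5 points at 30 to 57 reads, and its groups were apart. On chromosome 7, that from 15502603 to 15502607 differed by 66.3 points at 10 to 31 reads, and re-aeration overlapped both other groups. On chromosome 10, that from 10546445 to 10546448 differed by 65.1 points at 12 to 42 reads, and its groups were apart.

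At the other end, the 4 smallest differences belonged to regions that were highly methylated also in air. The smallest difference was on chromosome 11, from 472807 to 472850, with levels of 75.7%, 67.1% and 73.9% in air, 75.5%, 86.9% and 86.9% in nitrogen and 74.9%, 73.9% and 79.8% after re-aeration, with 240 to 396 reads. Its groups overlapped, and nitrogen library 1 was at the level of air library 1. Further along that chromosome, 3925433 to 3925466 stood at 77.1%, 70.5% and 71.7% in air, 81.4%, 92.0% and 89.3% in nitrogen and 77.6%, 82.2% and 81.4% after re-aeration, with 81 to 221 reads. Its re-aerated libraries lay above air and reached into the range of nitrogen. The other 2 small differences were 15.3 points on chromosome 1, from 33915434 to 33915497, and 17.1 points on chromosome 7, from 26129568 to 26129628.

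**Figure D3:**
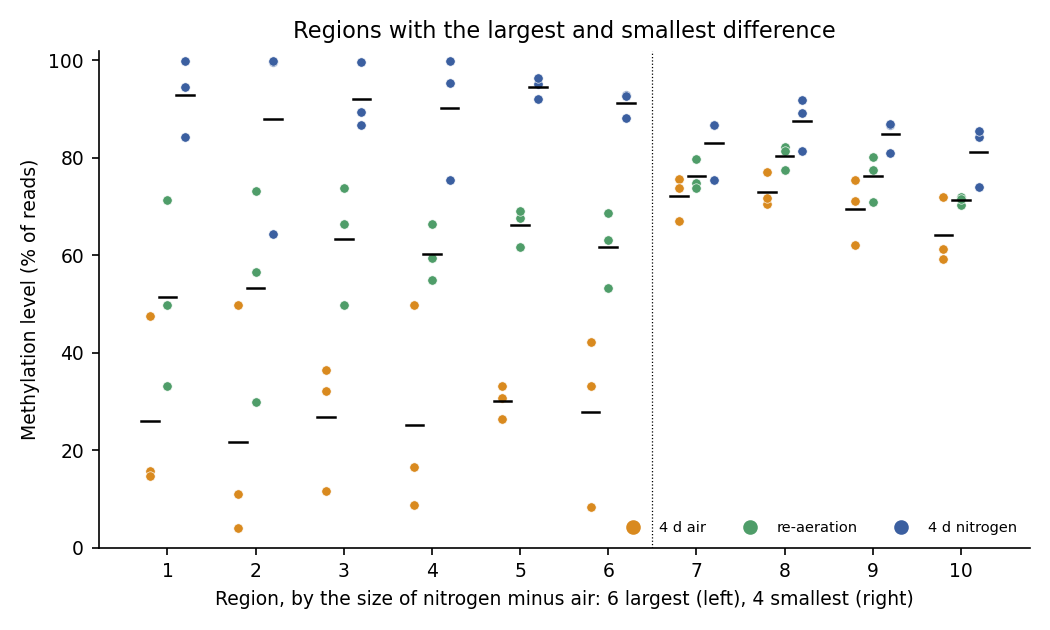
Methylation level (percent of reads, vertical axis) of every library in the 6 regions with the largest (1 to 6) and the 4 with the smallest (7 to 10) difference of nitrogen minus air, with each group's mean as a bar. The large differences come with few reads, 10 to 57 a library, and an SD in air of 13.3 points or more in 5 of the 6 regions and 3.46 in region 5, and the small ones with levels of 59.4% and over in air.

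The regions highest in nitrogen had differing levels in air. The one highest on average, on chromosome 7 from 27503245 to 27503247, stood at 99.8%, 95.7% and 97.0% in nitrogen, 62.4%, 37.4% and 28.9% in air and 69.1%, 51.4% and 66.5% after re-aeration, with 23 to 51 reads. Another near the top, on chromosome 8 from 22142424 to 22142460 stood at 96.3%, 92.9% and 97.5% in nitrogen, 68.5%, 68.4% and 70.5% in air and 86.8%, 74.2% and 85.2% after re-aeration, with 123 to 228 reads. Both were near full in nitrogen, and only the latter had all 3 groups apart. These 2 regions were chosen after their values were seen.

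The 3 longest regions differed in their spread between libraries. The region on chromosome 7 from 23972471 to 23972610 is 140 bp long and stood at 61.5%, 64.0% and 66.1% in air, 88.4%, 87.4% and 90.02% in nitrogen and 80.7%, 75.1% and 75.4% after re-aeration, with 314 to 662 reads. The next longest, on chromosome 1 from 38884029 to 38884167, stood at 54.7%, 52.4% and 48.4% in air, 82.2%, 77.9% and 80.9% in nitrogen and 66.0%, 67.7% and 62.0% after re-aeration, with 428 to 638 reads. In these 2, no group's SD was above 3.21 points and the groups were apart. The most reads fell in the region on chromosome 2 from 22627864 to 22628000, with 449 to 738 a library. It stood at 48.3%, 47.96% and 57.1% in air, 86.0%, 83.5% and 84.7% in nitrogen and 80.5%, 69.1% and 71.4% after re-aeration. It is the next longest at 137 bp, and its SD was 5.19 points in air, 1.27 in nitrogen and 6.05 after re-aeration. Its share was 32.8%, near the lower limit. On chromosome 9, the region from 16962090 to 16962224, with 515 to 718 reads, had means of 60.2% ± 1.13 in air, 83.0% ± 3.91 in nitrogen, 72.5% ± 3.11 after re-aeration (SD, n = 3 each).

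Regions on either side of the limits on air, nitrogen and the share were compared. The 3 members lowest in air stood there at 21.7%, 21.7% and 23.01%, and the next regions below the limit at 17.8%, 16.4% and 14.8%. The 3 members lowest in nitrogen stood there at 80.004%, 80.028% and 80.035%, and the 3 nearest regions left out at 79.994%, 79.988% and 79.967%. The members of the lowest share had 30.1%, 30.2% and 30.8%, against 29.9%, 29.9% and 29.6% outside, and those of the highest share 64.9%, 64.9% and 64.7%, against 65.1%, 65.3% and 65.5% outside.

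Grouped by level in air, the regions differed in length and reads, which the rule did not use beyond the minimum of 10. The 28 regions at 20% to 30% in air had a median length of 7.5 bp and a median of 40.1 reads a library, the 61 at 30% to 40% had 19 bp and 81.6 reads, and the 104 at 40% to 50% had 27.5 bp and 136 reads. The 145 regions at 50% to 60% had 38 bp and 179 reads, and the 54 at 60% and over had 47 bp and 234 reads. Over these 5 sets the mean nitrogen level was 85.4%, 84.1%, 84.9%, 85.2% and 88.5%, and the mean re-aerated level was 57.5%, 60.9%, 66.3%, 70.7% and 77.3%. The median share was 45.9%, 46.4%, 47.1%, 47.6% and 49.7%, within the limits of the rule. Those limits tie the re-aerated level to the level in air, so its rise over the sets is a description. The part of short length and few reads in the low levels in air was not tested.

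**Figure D4:**
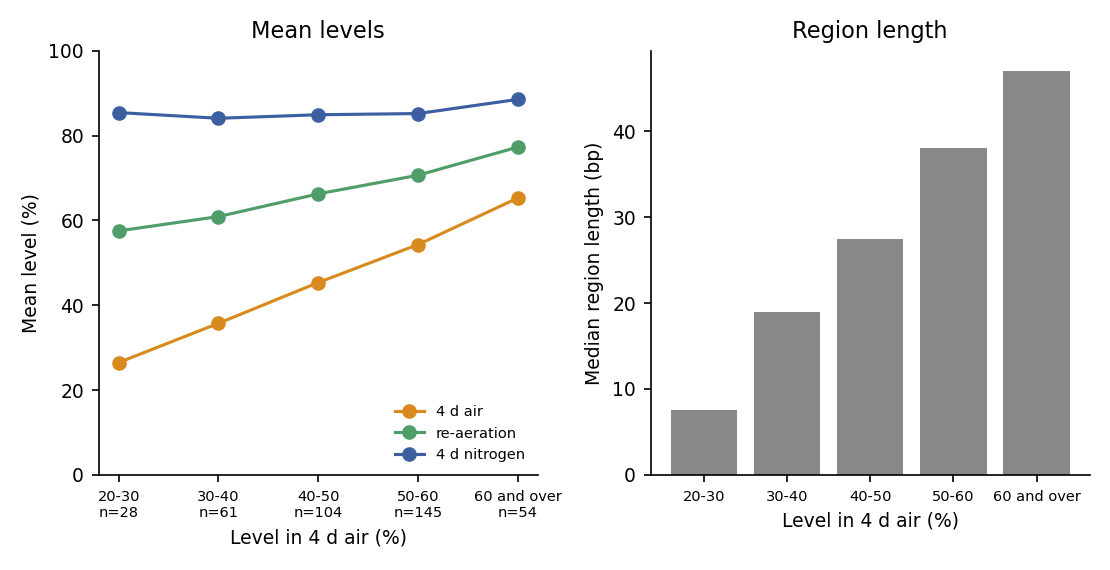
Left, mean level (percent, vertical axis) in each group for the 392 regions in 5 sets by their level in 4 d air (percent, horizontal axis, with the number of regions). Right, median length (bp) of the regions of each set, which goes from 7.5 bp in the lowest set to 47 bp in the highest.

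By level in nitrogen, the 205 regions at 80% to 85% had a mean of 46.6% in air and 65.5% after re-aeration. The 132 at 85% to 90% had 49.4% and 69.4%, and the 55 at 90% and over had 54.1% and 73.7%. The median nitrogen minus re-aeration was 16.2, 16.9 and 16.6 points in these sets, and the median lengths were 35, 27 and 20 bp.

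The 392 regions had a median length of 29 bp, with an interquartile range of 17 to 52.2 bp and a longest of 140 bp, against 39 bp, 19 to 73 bp and 573 bp in the other 1739. The 577 regions that met the limits on air, nitrogen and their difference, which include the 392, had 28 bp, 15 to 51 bp and 142 bp. The short length was therefore not particular to the 392. Regions of over 100 bp made up 3.06% of the 392 and 12.5% of the others. Of the 228 table regions of at most 10 bp, 21.5% belonged to the 392, of the 721 of 21 to 50 bp 21.8%, of the 589 of 51 to 100 bp 16.1%, and of the 230 longer ones 5.22%. The spread between libraries was larger in the short regions. Its median SD in those of at most 10 bp was 12.5 points in air, 6.50 in nitrogen and 10.003 after re-aeration. In those of over 100 bp it was 4.26, 3.54 and 3.88 points.

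Over all 392, the median SD between the libraries of a region was 7.72 points in air, 4.19 in nitrogen and 6.24 after re-aeration. The SD in air was above that in nitrogen in 305 regions, and that after re-aeration was in 274. The same counts for the table are not given here. Over all regions of the table the median SD had the same order, at 6.11 points in air, 4.89 in nitrogen and 5.90 after re-aeration. The counts are therefore not read as a trait of the 392. Counting error is smaller near full methylation than at middle levels, so the spread was also taken as a ratio to that of independent reads. The median ratio of variances was 3.76 in air, 2.19 in nitrogen and 2.40 after re-aeration, against 2.68, 2.49 and 2.19 in the other regions of the table.

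Reads per region were fewer than in the other regions of the table, whose library medians were 145 to 200. The mean of the library medians was 140 ± 10.8 in air, 154 ± 14.3 in nitrogen, 127 ± 6.71 after re-aeration (SD, n = 3 each). Re-aerated libraries held 0.823 times the reads of nitrogen libraries (exact two-sided permutation p = 0.1, the smallest that 3 against 3 allows). The same ratio was 0.831 in the other regions of the table. Whether read numbers have a part in the levels was not tested.

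A quasi-binomial logistic model of methylated and total reads was fitted to each of the 2131 regions, with p-values adjusted over the table by the Benjamini-Hochberg method. A region was called at an adjusted p under 0.05 and a difference of at least 10 points. All 392 were called higher in nitrogen than in air, where 98.6% of the table was. Lower levels after re-aeration than in nitrogen were called in 195 of the 392, that is 49.7%, where 39.2% of the table was. Higher levels after re-aeration than in air were called in 172, that is 43.9%, where 40.9% of the table was. The rule used these differences, so nothing is read from the counts. Of the 392, 110 were called in both comparisons of re-aeration, 85 against nitrogen alone, 62 against air alone and 135 in neither. These are 28.1%, 21.7%, 15.8% and 34.4% of the 392, where the table had 15.5%, 23.7%, 25.3% and 35.5%. Without any 1 of the nitrogen or re-aerated libraries, the 195 became 35 to 50. Without air library 1, the 172 became 121, and without any other of the air or re-aerated libraries 65 to 75. The table's shares without a library are not given here, so these drops are not read as a trait of the 392.

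All nitrogen libraries were above all air libraries in 389 of the 392 regions, where this held in 97.7% of the table. All re-aerated libraries were below all nitrogen libraries in 329, where this held in 68.0% of the table, and above all air libraries in 262, where this held in 63.5% of the table. Both held in 233 regions, or 59.4%, where both held in 41.4% of the table. The limits on the share keep the re-aerated mean away from either end, and so these counts are descriptions.

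The levels were then read in libraries that the limits had not used. The regions still come from a table that the authors picked for a difference between 4 d air and 4 d nitrogen, so the left-out air and nitrogen levels and the order of the groups are not independent of the choice. The regions were chosen by the same limits without the libraries of 1 replicate number, and the left-out libraries were read. Leaving out number 1, 2 and 3 gave 374, 350 and 336 regions, of which 273, 267 and 265 were among the 392. In the left-out nitrogen libraries the mean was 82.7%, 82.9% and 83.9%, and 69.8%, 69.1% and 72.5% of the regions reached 80%. The left-out air libraries had means of 51.6%, 46.2% and 48.1%, and the left-out re-aerated libraries 66.6%, 66.4% and 67.0%. Left-out levels in nitrogen were thus below the mean of 85.4% in the regions chosen with all libraries, and those after re-aeration stood between nitrogen and air. From these means the share was 51.8%, 44.9% and 47.1%. With all libraries, the 1554 regions that missed the limits on air, nitrogen or their difference had a median share of 49.1%. A share near the middle is therefore not particular to the chosen regions. Region by region, the left-out libraries were in the order nitrogen, re-aeration, air in 80.2%, 90.3% and 88.7% of the chosen regions and in 79.5%, 88.5% and 86.1% of the whole table, so the order was about as frequent as in the table.

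The regions were scattered over all 12 chromosomes. Chromosome 3 held 57 and chromosome 1 held 51, and the 392 made up 13.4% of the table's regions on chromosome 11 and 20.6% on chromosome 4, the lowest and highest shares. The mean nitrogen level per chromosome lay between 84.3% and 86.6%, and the median share between 43.5% and 50.99%. The median distance to the next of these regions on a chromosome was 504 kb. Of the 392, 374 had no other of these regions within 10 kb and the rest formed 9 pairs. Only 86, or 21.9%, had any region of the table within 10 kb. The same counts for the other regions of the table are not given here, so the spacing is not read as a trait of the 392. Of the 81 other regions of the table within 10 kb, 72 were under 80% in nitrogen. The means of the 81 were 35.3% in air, 66.5% in nitrogen and 52.4% after re-aeration. Those of all 1739 other regions were near them, at 34.8%, 66.7% and 51.2%. The 1739 include 1554 that missed the limits on air, nitrogen or their difference, so the 72 are not read as a local contrast.

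A close pair on chromosome 9, with regions of 25 and 7 bp, differed in air. It is 1 of the 9 pairs, and the air levels overlapped in some of the others and not in the rest. The region from 12415160 to 12415184 stood at 60.4%, 55.2% and 54.6% in air and 87.5%, 78.2% and 80.7% in nitrogen. The region from 12415910 to 12415916 stood at 24.0%, 24.95% and 37.6% in air and 90.1%, 71.9% and 88.0% in nitrogen. The air levels of the pair did not overlap and the nitrogen levels did. After re-aeration they stood at 71.6% ± 11.03 (SD, n = 3) and 59.4% ± 3.50 (SD, n = 3), with 127 to 198 and 40 to 93 reads. The closest pair lay 123 bp apart on chromosome 2. The region from 23647956 to 23647981 had means of 59.9% ± 5.57 in air, 90.2% ± 2.29 in nitrogen, 80.4% ± 4.90 after re-aeration (SD, n = 3 each). The region from 23648104 to 23648121 had 45.1% ± 6.05, 86.8% ± 3.01 and 69.9% ± 6.15 in the same order (SD, n = 3 each).

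Embryo libraries were not used in the choice, and 3 of the 392 regions, or 0.765%, overlapped a region of the deposited table of dry seed against 24 h (the dry seed table), where 0.892% of the oxygen table did. That table covers embryos of the dry seed and embryos after 24 h in air or in nitrogen, with 3 libraries each, besides the coleoptiles. All 3 regions were over 80% in the dry seed and lower after 24 h in air. The authors picked the regions of that table for a difference between these embryo groups, so a fall from the dry seed is no independent result, and it was called in 99.1% of the table in air and 96.9% in nitrogen. A rise from the dry seed to 24 h air was called in 0.0169% of the table and in 0 of the 3 regions.

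On chromosome 1, the dry seed table region from 19071773 to 19071889 shares 30 bp with the region from 19071860 to 19071910. It stood at 87.8%, 80.5% and 89.0% in the dry seed, 62.0%, 71.3% and 63.2% after 24 h in air and 74.6%, 77.7% and 77.2% after 24 h in nitrogen, with 269 to 777 reads. The nitrogen embryos lay between the others with no overlap. The difference of 24 h nitrogen minus air was 10.996 points, with an adjusted p of 0.764 in the quasi-binomial model over the dry seed table. In coleoptiles the same stretch had 52.0% ± 2.63 in 4 d air, 69.9% ± 4.88 in 4 d nitrogen, 74.2% ± 8.46 after re-aeration (SD, n = 3 each), so the re-aerated mean was not below that of nitrogen over this wider stretch. In the overlaps on chromosomes 7 and 10 it was below, at 72.1% ± 5.04 against 78.7% ± 4.02 and at 57.9% ± 7.39 against 67.3% ± 4.58 (SD, n = 3 each).

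On chromosome 7, the dry seed table region from 23623673 to 23623788 shares 92 bp with the region from 23623697 to 23623792. It stood at 86.0%, 81.3% and 81.0% in the dry seed, 68.1%, 71.4% and 74.2% after 24 h in air and 76.0%, 74.6% and 77.1% after 24 h in nitrogen, with 408 to 1195 reads. The order was again dry seed, nitrogen, air with no overlap. The difference of 24 h nitrogen minus air was 4.68 points (adjusted p = 0.944 in the quasi-binomial model).

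On chromosome 10, the dry seed table region from 21667045 to 21667109 shares 19 bp with the region from 21667027 to 21667063. It stood at 81.7%, 85.1% and 82.3% in the dry seed, 66.1%, 74.1% and 52.4% after 24 h in air and 64.8%, 71.8% and 67.1% after 24 h in nitrogen, with 157 to 414 reads. Both 24 h groups were below the dry seed and overlapped each other. The fall from the dry seed was called in all 3 regions in air and in the chromosome 10 region in nitrogen. In nitrogen, the chromosome 1 and 7 regions differed from the dry seed by -9.29 and -6.84 points. Their adjusted p was 0.0203 and 0.00978 in the quasi-binomial model, and they were not called because of the minimum of 10 points. The difference between the 24 h groups was called in 0 of the 3 regions by the quasi-binomial model and 0 by limma, where 0.0170% of the table was called higher in nitrogen by the former. At an unadjusted p under 0.05 it was 1 of the 3, where the table had 377 of 5908.

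**Figure D5:**
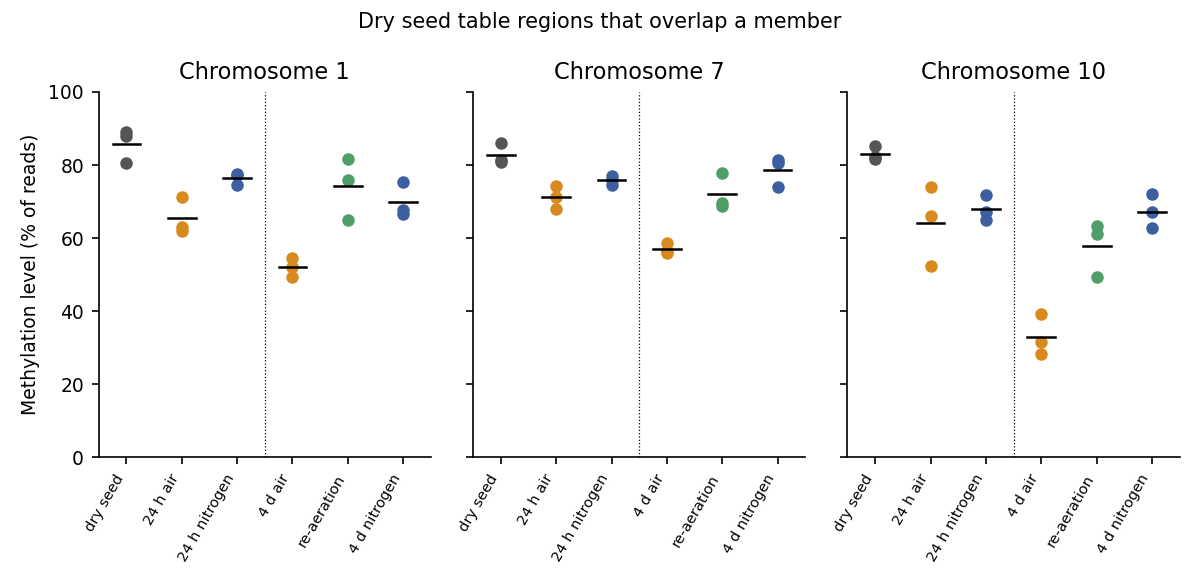
Methylation level (percent of reads, vertical axis) of the 3 dry seed table regions that overlap one of the 392 regions, for every library of the 6 groups (horizontal axis; embryos left of the dotted line, coleoptiles right), with group means as bars. Dry seed libraries lie between 80.5% and 89.0%, and 24 h nitrogen means lie above 24 h air means in each panel.

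Within 1000 bp of 26 of the 392 regions lay 28 regions of the dry seed table, a window chosen after the data were seen. These stretches cover other cytosines than the 392 regions, except in the 3 overlaps. Their mean was 68.96% ± 2.69 (SD, n = 3) in the dry seed, 37.5% ± 1.89 (SD, n = 3) after 24 h in air and 43.7% ± 0.520 (SD, n = 3) after 24 h in nitrogen. The 24 h nitrogen libraries lay above the 24 h air libraries (43.3% to 44.3% against 35.6% to 39.4%; exact two-sided permutation p = 0.1, the smallest that 3 against 3 allows). Nitrogen was above air in 27 of the 28, with a median difference of 4.63 points, where 70.2% of the dry seed table was above 0. Beside the other regions of the oxygen table it was 128 of 163, or 78.5%, with a median of 4.01 points, and the level in 24 h air was 37.5% beside the 392 and 27.9% beside the others. All 3 nitrogen libraries were above all 3 air libraries in 10 of the 28, where this held in 14.0% of the table. Beside the other regions of the oxygen table this held in 31 of 163, or 19.0%. In windows of 500, 2000 and 10000 bp, nitrogen was above air in 17 of 18, 45 of 51 and 153 of 201. These are 94.4%, 88.2% and 76.1%, where it was 79.4%, 76.0% and 72.3% beside the other regions of the oxygen table. The quasi-binomial model called 0 of the 28 and limma 0, with 6 at an unadjusted p under 0.05, where the whole table had 377 of 5908 at that p and limma called 5.

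The same 28 regions differed from the 392 after re-aeration. Their coleoptile means were 29.9% ± 0.2996 in 4 d air, 42.3% ± 0.470 in 4 d nitrogen, 58.4% ± 0.371 after re-aeration (SD, n = 3 each), so the re-aerated libraries stood above nitrogen there. Over the whole dry seed table these means were 23.2%, 29.3% and 58.1%. None of the 392 regions overlapped the deposited table of 4 d nitrogen against re-aeration, which 0.469% of the oxygen table did, and 5 lay within 1000 bp of one of its regions.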

How the data were processed

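MethylC-seq libraries were made from 600 ng of DNA with 0.5% lambda DNA added, per the labels' protocols. The authors deposited 3 tables of regions picked for a difference. Per the file headers each holds, per region and library, a total read count, a methylated read value and a percent. The methylated values were treated as estimated counts, since each deposited value is a whole number times a library factor of 0.9977 to 0.9983 (100% whole to within 0.01 after division). The deposited percent is their ratio. The sources used here do not give the aligner, the caller or the build. Every column was matched to a library by its title, and 0 columns of per-library values were left unused.

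The quasi-binomial model had a term per group, the methylated values rounded to whole numbers, a spread shared by all groups of a table and a dispersion of at least 1. Alternatives were limma 3.58.1, other read minimums, the spread of the compared groups and left-out libraries. SciPy 1.17.1 was used. Regions were named by a rule on size, length, reads, pairs and overlap, and the members and lists were chosen with earlier results of these data known.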

Additional observations from a re-analysis of the deposited data

How the results depend on the processing

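With 5 or 20 reads as the minimum, summed reads, or a replicate number left out (336 to 374), the number of regions stayed within 1.5 times 392, and with no limit on the share it was 577. As medians over the regions, the level was 84.6% in nitrogen and 68.5% after re-aeration, and nitrogen minus re-aeration was 16.6 points. The median share was 55.5% on the log odds scale (0.5 reads added) and 45.1% to 48.4% with a library left out. The regions called lower after re-aeration than in nitrogen were 65 with a replicate block, 88 when each pair of groups had its own spread, 79 at 20 points, and 35 to 50 with a library left out, against 195. By limma they were 248, and with no minimum difference 206. Those called higher than air were 77 with that block, 65 with a spread of their own, 101 at 20 points, 288 by limma, and 65 to 121 with a library left out, against 172. The cause was not tested. Regions called higher in nitrogen than in air were 381 to 389 with a library left out. The share of the whole table called under these settings is not given here. These counts are therefore not read as a trait of the 392. Libraries of the same number did not deviate together (correlations of -0.011 to 0.045 over the regions of the oxygen table), so the numbers were not taken as pairs. Overlap by at least 50% of both regions left 1 of the 3 overlaps with the dry seed table, with a 24 h nitrogen level of 75.9%, and 26 regions had one within 1000 bp. Calls of 24 h nitrogen against the dry seed were 1 to 2 of these 3 with a library left out. Of the 28 regions near the 392, 24 to 27 were higher in 24 h nitrogen than in 24 h air with other read minimums or a library left out. Few reads limit the short regions: those of at most 10 bp had a median of 48 reads a library.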
